A study of Mus musculus with 8 samples.

Results

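Nucb2, Kynu, Mpeg1, Sgk3 and Lsp1 are 5 mouse genes with unrelated functions that were chosen by their measured log2 difference, a large fall in wildtype T lineage cells against lineage-negative cells. Each was measured by 1 probeset that maps to 1 gene symbol, so the 5 members are 5 of 21789 such probesets and 5 of 19938 genes. The choice rests on the measured values, so the falls in T lineage cells are given here as a description and carry no test. The rule names no size of fall. By size of fall, Nucb2 stood in place 3, Mpeg1 in place 11, Kynu in place 12, Lsp1 in place 270 and Sgk3 in place 387 of the 21789 probesets.

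The study cultured lymphoid primed multipotent progenitors from bone marrow for 4 days on OP9-DL4, a stromal line that presents the Notch ligand Delta-like 4, with Flt3 ligand at 5 ng/ml and IL1, as the labels spell it, at 1 ng/ml. CD45.2-positive cells were then sorted, and 10 ng of total RNA per sample was amplified for the array. The 3 groups were Tcf1-deficient lineage-negative cells (labelled Tcf7-/-, Mac1-Gr1-Thy1-CD25-, 3 mice), wildtype lineage-negative cells (Tcf7+/+, same gate, 3 mice) and wildtype T lineage cells (Tcf7+/+, Thy1+CD25+, 2 replicates). The mice came from a line backcrossed for about 6 generations and kept on a mixed background, their age is not given in the sources used here, and no deficient T lineage group exists because the labels report that no such cells developed. Lineage-negative is written LN below.

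Nucb2 encodes nucleobindin-2, a calcium-binding EF-hand protein of the secretory pathway and the precursor of the peptide nesfatin-1. Kynu encodes kynureninase, which cleaves kynurenine and 3-hydroxykynurenine in the breakdown of tryptophan. Mpeg1 encodes perforin-2, a pore-forming protein of phagocytes. Sgk3 encodes a kinase of the AGC family, related to AKT, that binds phosphoinositides on endosomes through a PX domain. Lsp1 encodes an actin-binding protein of leukocytes that is a substrate of the kinase MK2 downstream of p38. When progenitors enter the T lineage under Notch signalling, they lose the capacity to form dendritic and myeloid cells, and genes of those lineages are switched off over several stages.

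Promoter sequence was at hand for 2 of the 5 members, and both are shown because these genes lie among the deepest falls. The lines give the 250 bases before the start of each gene in RefSeq, build GRCm38.p6, with any match to a searched motif in capitals. Nucb2 lies at chr7:116504119-116504368 on the + strand and Mpeg1 at chr19:12460520-12460769 on the + strand.
Nucb2: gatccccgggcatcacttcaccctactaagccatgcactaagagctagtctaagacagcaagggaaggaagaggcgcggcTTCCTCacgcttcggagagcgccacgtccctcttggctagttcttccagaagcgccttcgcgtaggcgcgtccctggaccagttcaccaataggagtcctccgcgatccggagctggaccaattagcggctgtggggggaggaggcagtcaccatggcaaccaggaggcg
Mpeg1: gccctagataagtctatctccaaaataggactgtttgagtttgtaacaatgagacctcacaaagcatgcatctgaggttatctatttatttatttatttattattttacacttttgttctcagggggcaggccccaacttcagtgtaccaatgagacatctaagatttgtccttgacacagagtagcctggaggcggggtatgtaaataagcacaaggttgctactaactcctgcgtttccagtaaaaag
Both strands were searched for 6 motifs of factors that act in these lineages. GAGGAA, a core bound by PU.1 and other ETS factors, matched once in Nucb2, on the strand opposite to the gene, and not in Mpeg1, and 23.3% of 32851 promoter windows of this length hold it. CTTTGA (TCF/LEF, 13.8% of windows), TGTGGT (Runx, 14.0%), CAGCTG (E proteins, 13.0%), TTGCNNAA (C/EBP, 9.56%) and the IRF motif (2.98%) had no match in either window.

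All values are log2 RMA signals. Replicate arrays of a group correlated with r from 0.987 to 0.994 across all probesets, which are not independent replicates, and array medians lay between 6.85 and 6.91. The T lineage label was borne out by 8 of 8 measured T lineage markers, among them Cd3g and Rag1, which were higher in T lineage than in wildtype LN cells by limma. The LN cells, although sorted as Mac1 and Gr1 negative, had high signal for dendritic and myeloid genes such as H2-Aa (11.37, wildtype mean) and Lyz2 (10.55), while other markers of these lists, such as Zbtb46 (6.43), Fcgr1 (6.26), Cd14 (6.22), Mertk (5.69), Camp (6.61) and Ltf (5.24), lay below the array medians. Of 10 stromal genes 0 were called by limma between T lineage and wildtype LN cells, also 0 at an unadjusted p under 0.05, and 1 was called without T lineage array 1. Against deficient LN cells 2 of the 10 were lower in T lineage cells, Sparc (-0.54, limma adjusted p = 0.0021) and Cxcl12 (-0.62, 0.0475). The Sparc mean was 7.26 in deficient LN, 6.73 in wildtype LN and 6.73 in T lineage cells, and that of Cxcl12 was 6.83, 6.41 and 6.21. Between the genotypes 0 of the 10 were called by limma, with 3 at an unadjusted p under 0.05.

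Nucb2 had the deepest fall of the 5 members. Its signal was 11.05, 10.76 and 10.49 in the deficient LN arrays, 10.94, 11.21 and 11.03 in the wildtype LN arrays, and 5.77 and 6.52 in the T lineage arrays. The 6 LN arrays of both genotypes lay at least 3.97 above the higher T lineage array, and the genotypes overlapped. The T lineage mean was 6.15 ± 0.53 (SD, n = 2) against 11.06 ± 0.13 (SD, n = 3) in wildtype LN cells, a log2 difference of -4.91 (SE 0.21), or 30.1-fold. Against deficient LN cells (10.77 ± 0.28, SD, n = 3) the difference was -4.62 (SE 0.21), or 24.6-fold. T lineage array 2 was 0.75 above array 1, so that the difference from wildtype LN cells was -5.29 with array 1 alone and -4.54 with array 2 alone. The same T lineage arrays stand in both comparisons.

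Among the 3 deep falls, Kynu had the smallest gap between the T lineage arrays, 0.20. It stood at 9.93, 9.40 and 9.21 in the deficient LN arrays, 9.82, 10.25 and 10.32 in the wildtype LN arrays, and 5.78 and 5.58 in the T lineage arrays. The lowest LN array was 3.43 above the higher T lineage array. The T lineage mean of 5.68 ± 0.14 (SD, n = 2) was 21.8-fold below wildtype LN cells (10.13 ± 0.27, SD, n = 3; log2 difference -4.44, SE 0.20) and 14.2-fold below deficient LN cells (9.51 ± 0.38, SD, n = 3; -3.83, SE 0.20).

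Mpeg1 stood at 10.59, 10.07 and 10.23 in the deficient LN arrays, 10.46, 10.35 and 10.43 in the wildtype LN arrays, and 5.68 and 6.20 in the T lineage arrays. Its wildtype LN arrays spanned only 0.11, and the deficient arrays lay on both sides of them. The T lineage mean of 5.94 ± 0.37 (SD, n = 2) was 22.2-fold below wildtype LN cells (10.41 ± 0.06, SD, n = 3; log2 difference -4.47, SE 0.17) and 20.4-fold below deficient LN cells (10.29 ± 0.27, SD, n = 3; -4.35, SE 0.17). As with Nucb2, T lineage array 2 was the higher, by 0.52. In T lineage cells Nucb2, Kynu and Mpeg1 all lay below the array medians, at 5.58 to 6.52. No call of presence above background entered the analysis, so whether any transcript remained is not known.

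Lsp1 and Sgk3 were reduced in T lineage cells and kept a high signal there. Lsp1 was measured at 11.72, 11.65 and 11.72 in deficient LN, 11.77, 11.64 and 11.80 in wildtype LN, and 10.10 and 10.42 in T lineage arrays. Its 6 LN arrays spanned 0.16 and its difference was -1.47 (SE 0.10) from wildtype LN cells, or 2.77-fold, and -1.43 (SE 0.10) from deficient LN cells, or 2.70-fold. Sgk3 was measured at 11.15, 10.85 and 11.04 in deficient LN, 11.08, 11.08 and 11.16 in wildtype LN, and 9.80 and 9.98 in T lineage arrays. This was a difference of -1.22 (SE 0.10) from wildtype and -1.13 (SE 0.10) from deficient LN cells, or 2.33-fold and 2.19-fold. For both genes the T lineage arrays lay below all LN arrays, by 1.21 for Lsp1 and 0.88 for Sgk3.

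**Figure D1:**
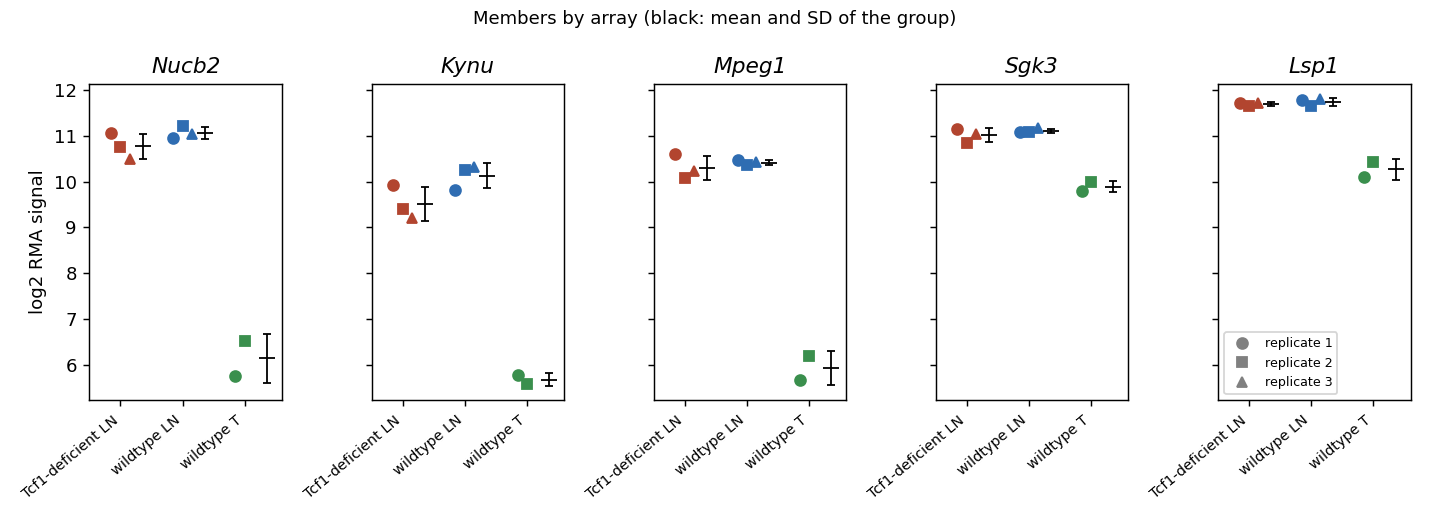
log2 RMA signal (vertical axis) of the 5 members in each of the 8 arrays, by group, with the marker shape giving the replicate number and the black bars the group mean and SD. Nucb2, Kynu and Mpeg1 drop from between 9.21 and 11.21 in LN arrays to between 5.58 and 6.52 in T lineage arrays, while Sgk3 and Lsp1 stay between 9.80 and 10.42 there.

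Between T lineage and wildtype LN arrays the 5 members did not overlap, as the choice of members demands. Over all probesets 10.4% were called lower in this comparison and 19.8% had T lineage arrays wholly below the wildtype LN arrays. Between T lineage and deficient LN arrays, where the shares over all probesets were 8.16% called lower and 17.1% wholly below, the 5 members did not overlap either. The choice set these same T lineage arrays against LN arrays, so this is no separate result. Since fewer expressing cells and less RNA per cell give the same signal in sorted populations, the values do not tell these apart.

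Marker genes of some other cell types moved with the members. Of the conventional dendritic cell markers 10 of 12 were lower in T lineage than in wildtype LN cells, and their summed linear signal was 1087 to 1154 in T lineage arrays against 9932 to 12459 in wildtype and 9585 to 10905 in deficient LN arrays. Zbtb46 (-0.09) and Batf3 (-0.16) were the 2 markers that did not pass. Plasmacytoid dendritic cell markers were lower in 5 of 5 cases (sum 1057 to 1098 against 3487 to 3828 in wildtype and 2250 to 3083 in deficient LN arrays). Macrophage and monocyte markers were lower in 5 of 8 cases (918 to 984 against 3441 to 4902 and 3295 to 3518), with Fcgr1, Mertk and Cd14 not passing. Neutrophil markers were lower in 3 of 8 cases (2955 to 4522 against 5563 to 9295 and 5382 to 6854). Stem and progenitor markers were lower in 4 of 5 cases and higher in 1, Kit (2115 to 2574 against 4320 to 4975 and 4943 to 5442), and without T lineage array 2 there were 3 lower and 0 higher. The NK and innate lymphoid sum went the other way (5651 to 6371 against 3764 to 4419 and 3585 to 3708). Of its 7 markers 2 were higher, Gzma (3.24) and Nkg7 (1.06), and 1, Klrd1, was lower (-5.71), a deeper fall than that of any member. Of the B lineage markers 1 of 6 was lower and 0 were higher (988 to 1181 against 942 to 1584 and 1067 to 1495), and 3 were lower without wildtype LN array 1. RMA values have no 0, so absence of a marker cannot be read from them. The part of these cell types in the values of the 5 members was not tested.

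T lineage array 2, in which Nucb2, Mpeg1, Sgk3 and Lsp1 were higher than in array 1, had a lower summed T lineage marker signal (4253 against 7660) and a higher neutrophil sum (4522 against 2955). Mpo (T lineage mean 11.11) and Ctsg (9.99), which did not pass against wildtype LN cells, were the brightest neutrophil markers there. The rest of that list had T lineage means below the array medians. These were Camp (6.59), S100a9 (6.31), Elane (6.18), Ngp (5.88), S100a8 (5.55) and Ltf (5.39). The neutrophil sum in T lineage arrays is thus mostly Mpo and Ctsg signal. Array 2 was also higher in the sums for stem and progenitor (2574 against 2115), B lineage (1181 against 988), conventional dendritic (1154 against 1087), macrophage (984 against 918) and plasmacytoid markers (1098 against 1057). It was lower for NK and innate lymphoid (5651 against 6371) and stromal markers (1156 against 1168). Kynu, unlike the other members, was lower in array 2, by 0.20. With 2 arrays these orders were not tested.

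The comparison of Tcf1-deficient with wildtype LN cells asks whether the members depend on genotype before the T lineage gate. The choice of members set T lineage against LN arrays and did not use the difference between the genotypes, although the LN arrays stand in both comparisons. All 5 members had a slightly lower mean in deficient cells, none passed the limma test (0 of 5, with 1 of 5 at an unadjusted p under 0.05), and the arrays of the 2 genotypes overlapped for each of the 5. Over all probesets 0.00459% were called, 6.01% lay wholly below and 3.93% wholly above the wildtype arrays. The median of the 5 differences was -0.12, beside -0.01 over all probesets.

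Kynu was the member with the largest genotype difference, at -0.62 (SE 0.18, 95% interval -1.01 to -0.22). Deficient LN cells thus had 65.3% of the wildtype signal, with a limma p of 0.00608 before and 0.693 after adjustment. Deficient arrays 2 and 3 (9.40 and 9.21) lay below the wildtype arrays, and deficient array 1 (9.93) lay above wildtype array 1 (9.82). The adjusted p ran from 0.24 to 1.00 over the alternative analyses, and the difference from -0.83 to -0.46. The summed plasmacytoid dendritic cell signal was 3083, 2625 and 2250 in the deficient and 3487, 3751 and 3828 in the wildtype LN arrays, also lowest in deficient array 3 and highest in wildtype array 3. Its part in the Kynu values was not tested.

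The other 4 members differed less between the genotypes. Nucb2 differed by -0.29 (95% interval -0.70 to 0.11), Mpeg1 by -0.12 (-0.45 to 0.21), Sgk3 by -0.09 (-0.29 to 0.10) and Lsp1 by -0.04 (-0.24 to 0.16), each with a limma adjusted p of 0.999. These intervals are narrow for Sgk3 and Lsp1 and leave room for a fall of up to 1.63-fold for Nucb2. The order of mean levels was wildtype LN, deficient LN, T lineage for all 5 members, and the first pair in that order did not pass the test for any of them. The last place of T lineage follows from the choice of members, which also used the LN arrays, so the order is no test.

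**Figure D2:**
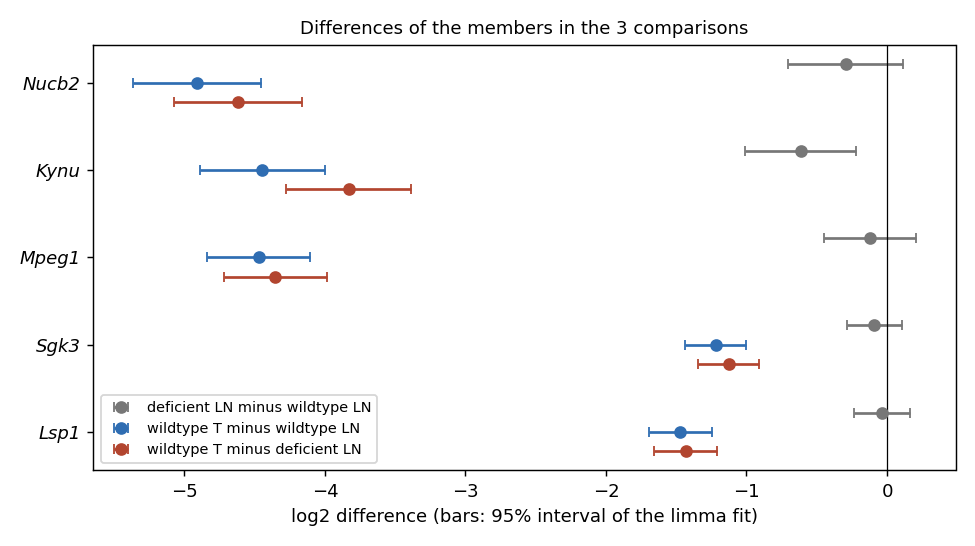
log2 difference (horizontal axis) of each member in the 3 comparisons, with 95% intervals from the limma fit as bars. The intervals for deficient against wildtype LN cells include 0 for 4 members and run from -1.01 to -0.22 for Kynu. The differences from T lineage cells, which share the T lineage arrays, lie between -1.13 and -4.91. The members were chosen by their fall in T lineage cells, so the bars of these comparisons are no test.

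Across the 6 LN arrays 2 of the 10 pairs of members passed by Pearson correlation and 0 by rank. Kynu ranged over 1.11, Nucb2 over 0.71, Mpeg1 over 0.52, Sgk3 over 0.30 and Lsp1 over 0.16. Nucb2 and Kynu were both high in wildtype arrays 2 and 3 and low in deficient arrays 2 and 3. Nucb2 was also high in deficient array 1 (11.05), above wildtype array 3 (11.03). The 2 genes had Pearson r = 0.93 (n = 6, exact two-sided permutation p = 0.00694, adjusted over 10 pairs 0.0486) and a Spearman rank correlation of 0.83 (exact permutation p = 0.0583, adjusted 0.257). Within the genotypes, after taking off each genotype's mean, r was 0.88, and without the 2 arrays farthest from the Nucb2 median it was 0.64 (4 arrays). Mpeg1 and Sgk3 were both lowest in deficient array 2, with r = 0.90 (n = 6, exact permutation p = 0.00972, adjusted 0.0486), a Spearman rank correlation of 0.83 (exact permutation p = 0.0583, adjusted 0.257), 0.88 within the genotypes and 0.67 without the 2 farthest arrays. After a second quantile normalization neither pair passed (adjusted 0.0694 for Nucb2 with Kynu and 0.139 for Mpeg1 with Sgk3), and r over the 4 arrays left was not tested, so neither relation was shown to hold without the 2 farthest arrays. The other 8 pairs had r from 0.00 to 0.66 with adjusted exact permutation p of 0.336 or more, and no pair passed by rank. Wildtype array 3 had the highest macrophage sum (4902) and conventional dendritic cell sum (12459) of the LN arrays, and deficient array 2 the lowest (3295 and 9585). The part of these cells in the correlations was not tested.

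**Figure D3:**
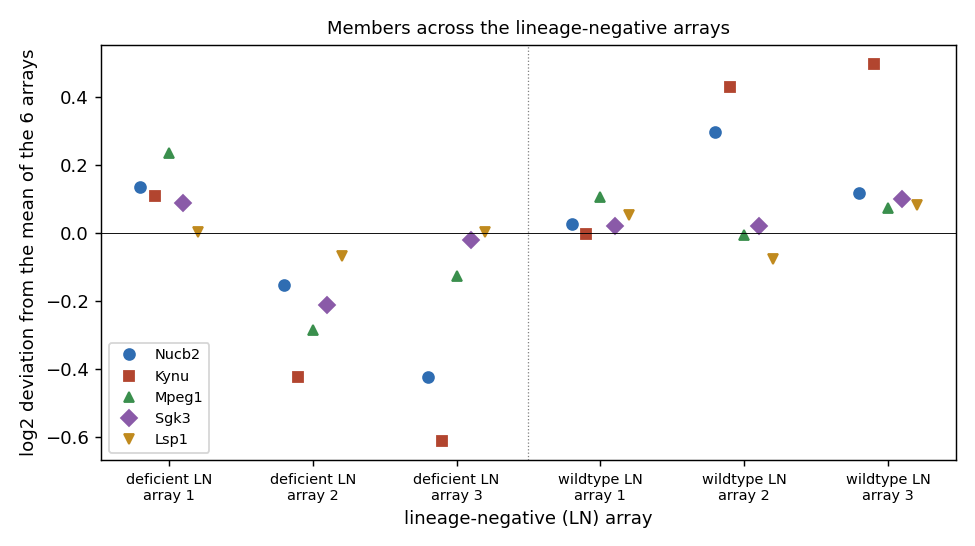
Deviation of each member from its own mean over the 6 LN arrays (vertical axis, log2), by array. Nucb2 and Kynu sit low in deficient arrays 2 and 3, Mpeg1 and Sgk3 are lowest in deficient array 2, and Lsp1 spans 0.16.

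Each member belongs to a pathway or family, and the other genes of these were tested between T lineage and wildtype LN cells. Of 91 such genes 9 rose, 21 fell and 61 did not pass, with a median difference of -0.03 beside 0.04 over all probesets, of which 7.66% rose and 10.4% fell. Against deficient LN cells, with the same T lineage arrays, 3 rose, 18 fell and 70 did not pass (5.98% of all probesets rose and 8.16% fell). Between the genotypes 0 of the 91 passed by limma, with 5 at an unadjusted p under 0.05.

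Of the other EF-hand, calcium-store and chaperone proteins of the secretory pathway 4 of 12 rose, 1 fell and 7 did not pass (median 0.09), and their differences lay between -0.46 and 0.79, far from that of Nucb2. Nucb1, the paralog of Nucb2, rose by 0.79 (SE 0.11, adjusted p = 0.000389), from 7.83 ± 0.15 (SD, n = 3) to 8.62 ± 0.01 (SD, n = 2). Calu, an EF-hand protein of the endoplasmic reticulum, rose by 0.44 (adjusted p = 0.0153) and Calr, a calcium-binding chaperone, by 0.34 (0.0304), while Rcn2, of the same family as Calu, fell by 0.46 (0.0011). The Calu call was lost without wildtype LN array 2 (adjusted p = 0.0556), T lineage array 1 (0.0646) or T lineage array 2 (0.083), over a range of 0.00402 to 0.083. The Calr call was lost without the same arrays (0.0954, 0.137 and 0.105) and when probesets without a single gene were added (0.0711), and its adjusted p ran from 0.00611 to 0.137. Against deficient LN cells 1 of the 12 rose and 1 fell, and neither Calu (0.33, adjusted p = 0.0671) nor Calr (0.23, 0.144) passed. The count of calls against wildtype LN cells, 5, was 2 without wildtype LN array 2 or without T lineage array 1.

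In the kynurenine pathway and NAD synthesis 2 of 18 genes fell, 0 rose and 16 did not pass (median -0.02). Kmo, the oxygenase that makes 3-hydroxykynurenine, a substrate of Kynu, fell by 3.21 (SE 0.19, adjusted p = 1.16e-06), from 11.63 ± 0.05 (SD, n = 3) to 8.42 ± 0.57 (SD, n = 2). Haao, which acts on the product of Kynu, fell by 0.77 (SE 0.09, adjusted p = 0.000182). The entry enzymes Ido1 (0.08, adjusted p = 0.538), Ido2 (0.15, 0.328) and Tdo2 (0.07, 0.808), and Qprt (-0.03, 0.884) further down, did not pass. Without T lineage array 2 there were 4 calls in the list, 3 lower and 1 higher.

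Mpeg1 shares the MACPF fold with perforin and the terminal complement components. Of the 11 other genes listed for this domain, 0 passed by limma in either direction (2 at an unadjusted p under 0.05). Astn2 (0.30, adjusted p = 0.0798) and Astn1 (0.24, 0.128) had the largest differences, and Astn2 passed without wildtype LN array 2 (0.0276, over a range of 0.0276 to 0.235). Prf1, which encodes perforin, differed by 0.16 (adjusted p = 0.344).

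Of the kinases related to Sgk3, their activators and their substrates 2 of 21 rose, 6 fell and 13 did not pass (median -0.07). Inpp4a, a phosphatase that makes the phosphoinositide bound by Sgk3, fell by 1.52 (SE 0.12, adjusted p = 1e-05), and its paralog Inpp4b rose by 0.97 (SE 0.18, adjusted p = 0.00393). Leaving out T lineage array 1 brought the Inpp4b rise to 0.60. Rictor, a subunit of the mTOR complex that phosphorylates SGK and AKT kinases, fell by 0.48 (adjusted p = 0.00164). Sgk1, the best known member of the SGK family, fell by 0.49 (SE 0.11, adjusted p = 0.00878), which did not pass once T lineage array 2 was left out (-0.31, 0.0905, in a range of 0.00237 to 0.0905), and Sgk2 differed by -0.03 (0.915). Without T lineage array 2 the list had 5 calls, 2 higher and 3 lower.

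Of the leukocyte actin cytoskeleton and the p38 to MK2 kinases 3 of 29 rose, 12 fell and 14 did not pass, and the median of -0.24 was the lowest of the 5 lists. Myo1f, an unconventional myosin of leukocytes, fell by 1.65 (SE 0.14, adjusted p = 1.26e-05), from 10.09 ± 0.14 (SD, n = 3) to 8.44 ± 0.36 (SD, n = 2). Capg, a filament-capping protein, fell by 0.97 (adjusted p = 5.95e-05), Gsn, which encodes gelsolin, by 0.80 (0.000195), and Arpc5, a subunit of the Arp2/3 complex, by 0.67 (0.000152). The kinases upstream of Lsp1 did not pass, with Mapk14 (p38 alpha) at -0.24 (adjusted p = 0.074) and Mapkapk2 (MK2) at 0.08 (0.761). Without T lineage array 1 the list had 8 calls in place of 15, 1 higher and 7 lower.

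**Figure D4:**
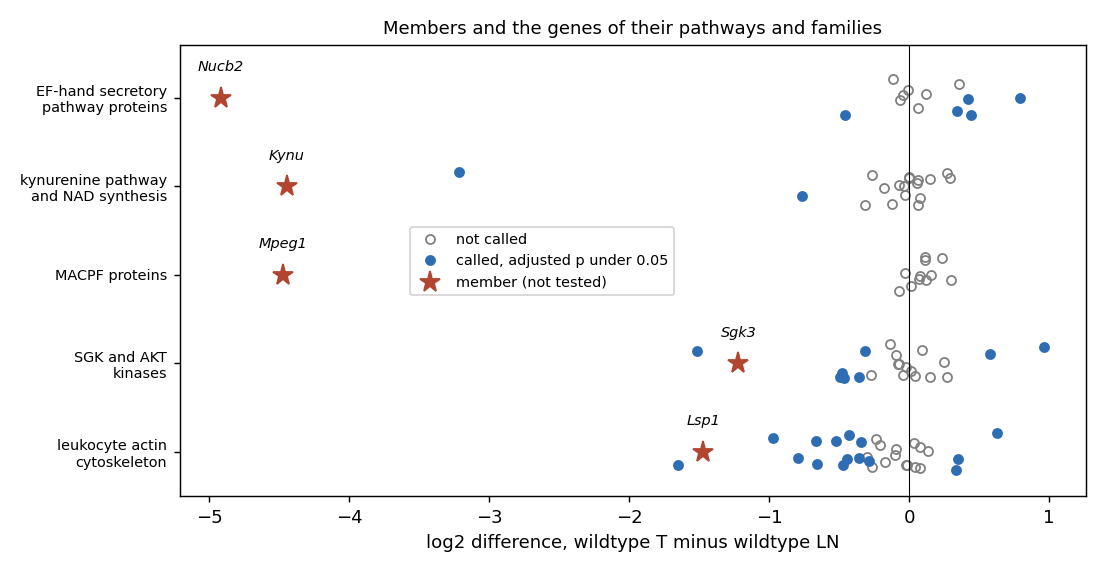
log2 difference of T lineage minus wildtype LN cells (horizontal axis) for the genes of each member's pathway or family, with the members as stars, called genes filled and other genes open. In the kynurenine list Kmo (-3.21) lies nearest to Kynu (-4.44), in the MACPF list no gene other than Mpeg1 lies beyond 0.30 from 0, and in the actin list 12 called genes lie on the side of Lsp1 and 3 on the other.

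The genes whose log2 profile over the 8 arrays lay nearest to each member, by root mean square distance after each gene was centred on its own mean, are a description of likeness that is set mostly by the T lineage arrays. Nearest to Nucb2 were H2-Ab1, an MHC class II chain (distance 0.197), Mpeg1 (0.231) and Ctsh, a lysosomal protease (0.246). For Mpeg1 they were Ifi205, of an interferon-induced family (0.145), Ctsh (0.156) and Rnd3, a small GTP-binding protein (0.168). Kynu lay nearest to Hpgd, a dehydrogenase that inactivates prostaglandins (0.186), the dendritic cell lectin gene Clec9a (0.186), and Ctsh (0.227). The differences of deficient minus wildtype LN cells were -0.64 for Hpgd, -0.32 for Clec9a and -0.34 for Ctsh (limma adjusted p = 0.693, 0.999 and 0.967). The LN arrays entered the distance, so a difference near that of Kynu follows in part from how these genes were picked.

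Sgk3 lay nearest to Ifi203 (0.048), Mtm1, a phosphoinositide phosphatase (0.051), and Malt1, a protease of antigen receptor signalling (0.053). Lsp1 lay nearest to Pip4k2a, a phosphoinositide kinase (0.049), Skap2, an adaptor of leukocyte adhesion (0.068), and Net1, a guanine nucleotide exchange factor (0.079). For these 6 genes the difference of T lineage minus wildtype LN cells was between -1.47 and -1.16, close to the member's own.

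The 2 nearest measured genes on each side of every member in gene order, 20 in all, were set beside it. Between T lineage and wildtype LN cells 1 rose, 5 fell and 14 did not pass (median -0.02). Over all probesets 7.66% rose and 10.4% fell, with a median of 0.04. Whether the neighbours differ from these shares was not tested. Between the genotypes 0 of the 20 passed by limma (0 also at an unadjusted p under 0.05). The measured gene next to Nucb2, Pik3c2a, a phosphoinositide 3-kinase, fell by 1.52 (SE 0.10, adjusted p = 3.42e-06) and Xylt1 on its other side rose by 0.43 (0.0213). The gene next to Lsp1, Tnni2, which encodes a troponin of fast muscle, fell by 1.37 (SE 0.11, adjusted p = 1.39e-05), from 9.12 to 7.75, close to the change of Lsp1. Dtx4, next to Mpeg1, fell by 0.75 (adjusted p = 0.000135) and Arhgap15, next to Kynu, by 0.43 (0.00635). Pfpl, on the other side of Mpeg1, differed by 0.03 (limma adjusted p = 0.848). Mcmdc2, next to Sgk3, fell by 0.32 (0.032). Xylt1 did not pass without T lineage array 1 (0.27, limma adjusted p = 0.213) or wildtype LN array 2 (0.0708), with probesets of no single gene added (0.0627) or with a replicate block (0.0519), in a range of 0.00844 to 0.213. Arhgap15 did not pass when T lineage array 1 was left out (0.0655, range 0.00118 to 0.0655). Mcmdc2 did not pass without any one of the wildtype LN arrays (0.0964, 0.0683 and 0.0602) or T lineage arrays (0.101 and 0.147), nor with probesets of no single gene added (0.0704), in a range of 0.0132 to 0.147. Whether a probeset also picks up transcript of the gene next to it was not tested.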

How the data were processed

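The deposited table holds 1 log2 value per probeset and array, which the authors made with RMA in Partek 6.5 per the submitters' processing notes. RMA adjusts background, normalises across arrays and combines the probes of a set. Its options and the genome build: not given in the sources used here. Of 35399 probesets, 11989 without a gene and 1621 with several genes were left out. Symbols were updated through the gene ID (99.6% matched). Differences came from limma 3.58.1 in R 4.3.3 (lmFit, eBayes, all 8 arrays in 3 groups, 5 residual degrees of freedom), two-sided, with Benjamini-Hochberg adjustment over 21789 probesets and a call at an adjusted p under 0.05. The fit was tested on simulated data. Precision is limited by the number of arrays. The labels give separate mice for LN cells. They do not say whether the T lineage replicates came from separate mice, so their spread may be technical.

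The members, gene lists and motifs were chosen with earlier results of these data known. Named genes were the members, the 3 nearest profiles of each, up to 4 called genes per pathway list by smallest p (or the 2 of largest difference where none was called) and the 2 nearest measured genes on each side. Other genes were named as examples after their values were seen. A gene with several probesets was represented by that of smallest p between T lineage and wildtype LN cells. This held for 999 of 19938 genes. It can raise the counts of calls in lists and neighbours for that comparison, while shares over all probesets involve no such choice. Genotype differences of named genes other than the members are given as counts, except those nearest to Kynu. Alternatives were a second quantile normalization, median centring, leaving out the dimmest 40% of probesets, all probesets, only the 2 groups of a comparison, array weights, a trended robust prior, a replicate block and leaving out each array.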

Additional observations from a re-analysis of the deposited data

How the results depend on the processing

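The differences of the 5 members kept their direction in all 3 comparisons under each of the 16 alternatives, and no member was called between the genotypes under any of them. T lineage minus wildtype LN differences ran from -5.29 to -4.54 for Nucb2, -4.60 to -4.35 for Kynu, -4.73 to -4.21 for Mpeg1, -1.31 to -1.13 for Sgk3 and -1.63 to -1.31 for Lsp1, the outer values of Nucb2, Mpeg1 and Lsp1 coming from leaving out 1 of the 2 T lineage arrays. The number of probesets called between the genotypes, 1, was 0 with all probesets, median centring, a second quantile normalization or a replicate block, 2 with only the 2 groups fitted, 6 with array weights, 11 with a trended robust prior, and 0 to 12 when an array was left out. Between T lineage and wildtype LN cells 3928 probesets were called (2680 to 4318), and between T lineage and deficient LN cells 3081 (2108 to 3497). The number of correlated pairs of members, 2, was 0 after a second quantile normalization and 3 after median centring. Deviations of same-numbered arrays from their group means had r from -0.247 to 0.158 across probesets, and the numbers were not taken as pairs. For wildtype LN with T lineage arrays of the same number, r was 0.158 and 0.12. With 2 T lineage arrays the deviations mirror each other, so the check cannot decide whether the wildtype arrays were paired. With the replicate block 3467 probesets were called between T lineage and wildtype LN cells and 2680 between T lineage and deficient LN cells. No member has several probesets, so averaging them could not be tried. Signal over background was not used here, which limits what can be said of Nucb2, Kynu and Mpeg1 in T lineage cells.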
